A study of Xenopus laevis with 14 samples.

Results

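The 7 arrays described here read anterior endoderm explants of Xenopus laevis embryos that had been injected with mRNA for Ptf1a, 3 collected at stage NF32 and 4 collected 8 hours later at stage NF36. They are 7 of the 14 arrays of the series and were chosen by their labelled injection and stage. The other 7 arrays, 3 at NF32 and 4 at NF36, read explants from embryos of the same batches that had received GFP mRNA alone. Both groups had been given 400 pg of GFP mRNA, and the Ptf1a groups a further 800 pg of Ptf1a mRNA, into the pair of dorsal vegetal blastomeres of the 8-cell embryo, whose descendants include the anterior endoderm. About 15 explants were pooled for each RNA, so that a replicate is a pool. The mRNA was injected rather than made from the ptf1a gene, so the injection set the amount given and the cells that received it. What set the ptf1a level at the stages sampled was not tested. Ptf1a embryos received more mRNA in total than GFP embryos. Every stage was hybridised as its own experiment, and the series text names different chips for the stages, although all probe sets of both stages carry identifiers of the later chip. Stage, chip and hybridisation batch can therefore not be told apart anywhere below.

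Ptf1a is a helix-loop-helix transcription factor that acts in a complex with an E protein and an RBPJ protein. In the gut tube it is needed to form the pancreas and later drives the digestive enzyme genes of acinar cells, and in the hindbrain, spinal cord and retina it directs the choice of inhibitory neurons. Anterior endoderm of the frog embryo gives rise to liver, pancreas, stomach and the front of the intestine, and over the stages sampled these organs begin to express their own secreted proteins and enzymes.

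The deposited intensities were scaled differently for the stages, with array means of 140.19 to 140.36 at NF32 and 100 at NF36. Values were therefore quantile normalized over the 22251 probe sets with a value on all 14 arrays, of which 11972 carried exactly 1 gene symbol, and each array was also turned into percentile ranks. All levels below are normalized intensities, which have no absolute unit and are not compared between probe sets, and all changes are differences of log2(intensity + 16), which understates the changes of dim probe sets. Explants of the Ptf1a groups correlated at 0.97 to 0.985 within NF32, at 0.957 to 0.979 within NF36 and at 0.91 to 0.942 between the stages. A gene was called where limma's Benjamini-Hochberg adjusted p over all 22251 probe sets was under 0.05 and the change was at least 2-fold. This species is allotetraploid, and the suffixes .L and .S name its long and short chromosome copies of a gene. Cross-reading between copies by a probe set was not tested. In these bulk samples fewer cells of a type and less RNA per cell cannot be told apart.

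From NF32 to NF36 the Ptf1a explants gained transcripts of intestinal fat and retinol carriers, liver plasma proteins, white cell enzymes and heart muscle proteins, and lost transcripts of neurons, of skin keratins and of the ciliated cells and ionocytes of the skin. Among all probe sets 411, or 1.85%, were called higher at NF36 and 361, or 1.62%, lower. Together these were 772 probe sets, or 3.47%. In 756 of them the Ptf1a arrays of the stages did not overlap in intensity or in percentile rank. The calls rest on the same arrays, so this count adds no support to them. The share without overlap over all probe sets is not given here. Without the fold requirement 3539 probe sets (15.9%) were higher and 3524 (15.8%) lower. In GFP explants the counts were 381 higher (1.71%) and 651 lower (2.93%). Changes of Ptf1a and GFP explants correlated at r = 0.821 across all probe sets, a description only, since probe sets are not replicates and the comparisons share stage, chip and scaling. The difference between the stage changes, Ptf1a minus GFP, passed adjusted p under 0.05 in the positive direction for 64 probe sets (0.288%) and in the negative direction for 53 (0.238%). Embryo batch was then used as a block, since GFP and Ptf1a explants of a batch were collected together. Batches were read from shared replicate numbers within a stage, and the counts became 671 (3.02%) and 341 (1.53%). Probe sets for ribosomal RNA changed by -2.67 ± 0.45, -1.72 ± 0.28 and 0.69 ± 0.12 (log2, SE) in Ptf1a explants and by -1.91, -1.36 and 0.81 in GFP explants, and their part in the results was not tested.

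**Figure D1:**
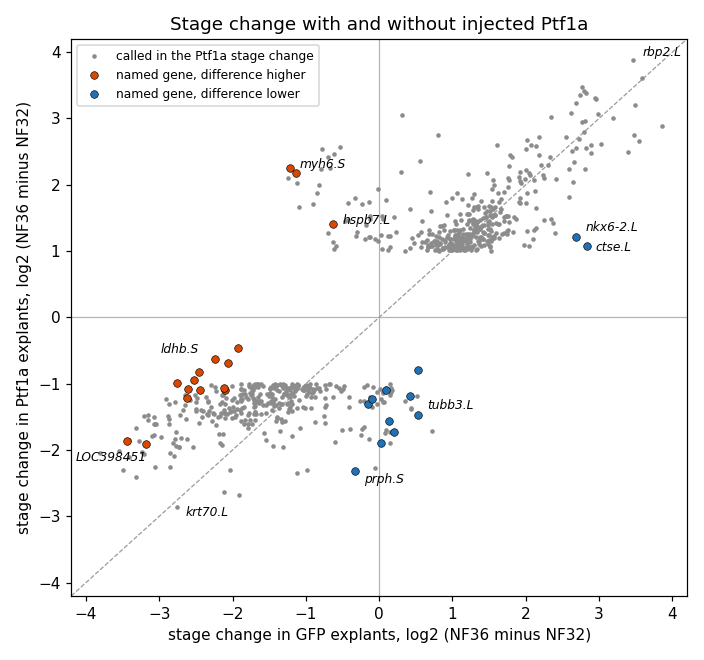
Stage changes (log2, NF36 minus NF32) of the probe sets called in Ptf1a explants, with the change in GFP explants on the x axis and in Ptf1a explants on the y axis, and a dashed line where both are equal. Named genes have a positive (orange) or negative (blue) difference between the changes; tubb3.L and elavl4.L fell in Ptf1a explants and had changes of 0.54 and 0.03 in GFP explants, and myh6.S rose by 2.25 against -1.22.

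The injected message was read first. ptf1a read 181, 334 and 299.8 on the Ptf1a arrays of NF32 and 134, 163, 368 and 156 on those of NF36. The stages overlapped, because replicate 3 of NF36 was above every NF32 array, and the change of -0.45 ± 0.28 (SE) did not pass (adjusted p = 0.246). In GFP explants ptf1a was far lower, at 15.4, 12 and 6.2 and then at 29.8, 39.9, 37.3 and 34.6, and its change of 0.92 (adjusted p = 0.0235) stayed below 2-fold. The difference of -1.37 ± 0.40 did not pass (adjusted p = 0.202, or 0.0671 with the embryo batch block). The probe set cannot tell injected from endogenous mRNA.

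The steepest rises and falls were named only among called genes with 1 symbol, enough brightness and Ptf1a arrays that did not overlap between stages. Their lack of overlap was therefore fixed by this choice and adds no support. Among the rises so named, the 2 steepest lay in genes of the intestinal lining. rbp2.L, the retinol carrier of enterocytes, read 12, 21.7 and 6.1 at NF32 and 364, 361, 916 and 216 at NF36, a rise of 3.87 ± 0.44 (log2, SE; adjusted p = 6.8e-05). The mean percentile rank of the probe set was 13.4 at NF32. fabp2.L, which carries fatty acids in the same cells, read 108, 87 and 35 and then 1248, 739.8, 1017 and 613, a rise of 3.35 ± 0.45 (adjusted p = 0.000185). Its other copy fabp2.S read only 1.2, 1.4 and 1.9 at NF32 and 88.2, 81.6, 329 and 64 at NF36. Replicate 3 stood above the other NF36 arrays for fabp2.S and rbp2.L. Of 13 gut and stomach genes 6 rose and none fell by the call, with a median change of 0.93. The others that rose were vil1.S, an actin bundler of microvilli, by 1.29 ± 0.20, the peptidase cndp2.L by 1.17, and sfrp5.S, a secreted Wnt inhibitor of foregut endoderm, by 1.06 ± 0.19. In GFP explants 7 rose, with a median of 1.00. The difference passed for no gut gene without the block, and with it for 1 in each direction. The summed level of the 13 genes was 435.2 to 501.4 at NF32 and 1528 to 3123 at NF36 in Ptf1a explants, and 637.8 to 1294 and 4464 to 5842 in GFP explants, so Ptf1a arrays lay below GFP arrays at both stages.

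**Figure D2:**
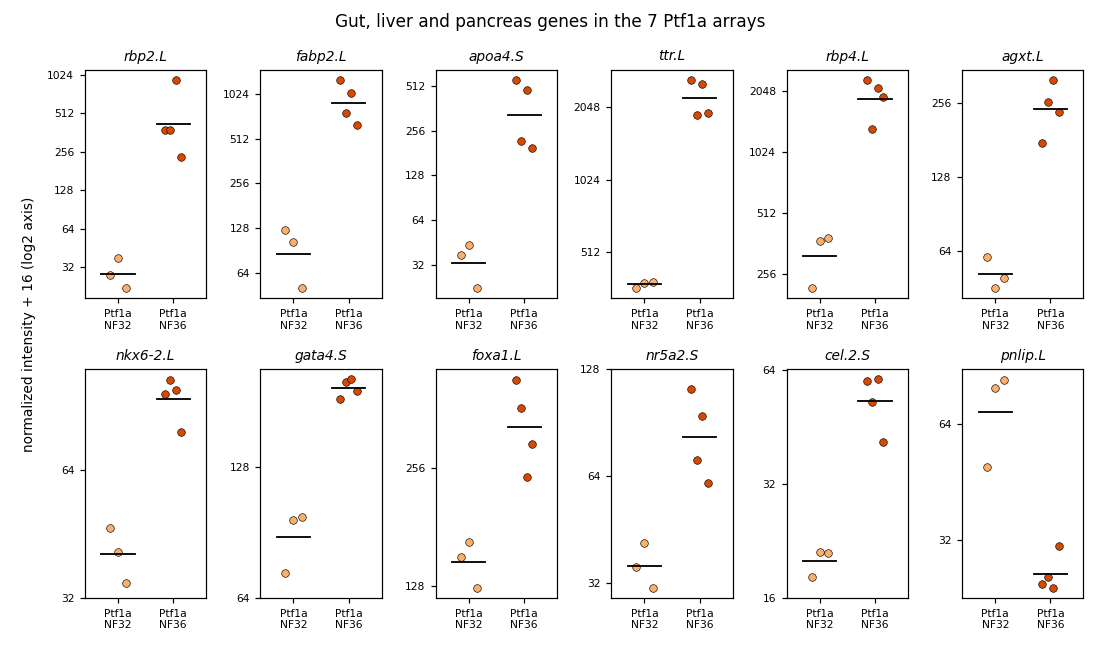
Normalized intensity plus 16 (log2 axis) of 12 endoderm genes on the 3 NF32 and 4 NF36 arrays of Ptf1a explants; points are arrays and bars the mean of the log values. Of the genes shown, pnlip.L alone was lower at NF36, and no gene had overlapping stages. The choice of rbp2.L, fabp2.L, apoa4.S, ttr.L and rbp4.L had required stages without overlap.

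Other genes of absorptive cells were among the 20 steepest rises. anxa13.L, an annexin of intestinal epithelium, rose by 2.94 ± 0.40 from 43.1, 27.3 and 8 to 382, 276, 298 and 214. lgals4.1.L, a galectin of the gut surface, rose by 2.61 ± 0.32 from 10.8, 30.3 and 16.3 to 248, 140.0, 319.6 and 121. That no NF32 array of either gene reached an NF36 array was a condition of their choice. crip1.S, a small LIM protein abundant in mammalian intestine, read 27.6, 15.9 and 9.6 and then 386, 188, 296 and 215, a rise of 3.07 ± 0.28 (adjusted p = 1.68e-05). In GFP explants anxa13.L, lgals4.1.L and crip1.S rose by 2.76, 2.89 and 2.98, and none of their differences passed. ctse.L, an aspartic protease related to the cathepsin E of mammalian stomach, rose less in Ptf1a than in GFP explants. It read 25.8, 18.8 and 11.2 and then 40.8, 60.4, 52.1 and 73.6 in Ptf1a explants, a rise of 1.07 ± 0.19, against a rise of 2.83 ± 0.19 in GFP explants, where the NF36 arrays read 234, 270.2, 241 and 319. The difference of -1.76 ± 0.26 passed the test (adjusted p = 0.0168).

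Liver plasma proteins and enzymes formed the list with the most rises. Of 45 measured genes 25 rose and none fell by the call, 44 had a change above 0, and the median was 1.23, against a median of 0.000592 over all probe sets. In GFP explants 32 rose and 1 fell, with a median of 1.29, and no member had a difference that passed without the block, against 2 with it, both negative. ttr.L, the thyroid hormone carrier transthyretin, read 348, 366 and 371 at NF32 and 2629, 1877, 2522 and 1916 at NF36, a rise of 2.56 ± 0.39 (adjusted p = 0.000423). The NF32 arrays lay close together and all NF36 arrays were far above them. rbp4.L, the plasma retinol carrier that travels with transthyretin, read 202, 355 and 368 and then 2304, 1313, 2096 and 1893, a rise of 2.58 ± 0.24 (adjusted p = 2e-05). agxt.L, a peroxisomal aminotransferase, read 44.5, 29.5 and 34.1 and then 160.3, 242, 302 and 219.5, a rise of 2.23 ± 0.18 (adjusted p = 9.13e-06). Neither gene had overlapping stages, which the choice of rbp4.L had required.

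Lipoprotein and clotting genes rose as well. The apolipoprotein gene apoa4 rose in both copies, apoa4.S by 3.31 ± 0.42 from 21.5, 27.6 and 6.4 to 546, 204, 468 and 179.8, and apoa4.L by 3.29 ± 0.43 from 14.3, 14.5 and 25.9 to 339.5, 217, 794 and 163. apoa1, the main protein of high-density lipoprotein, was bright at NF32 and rose less, by 1.405 ± 0.13 for apoa1.L and by 1.75 ± 0.16 for apoa1.S. The fibrinogen chains fga.L, fga.S, fgb.L and fgg.L rose by 1.26, 1.67, 2.62 and 2.12, and prothrombin, f2.L, by 1.23. gc.S, the vitamin D carrier, rose by 3.23 ± 0.43, and uox.L, which degrades uric acid, by 2.79 ± 0.22 from 10, 7 and 4.2 to 90.6, 163, 177 and 156. In none of these genes did an NF32 array reach an NF36 array, which the choice of apoa4, fgb.L, gc.S and uox.L had required. The summed level of the 45 genes was 19040 to 21630 at NF32 and 39810 to 52640 at NF36 in Ptf1a explants, and 20500 to 26980 and 49550 to 55130 in GFP explants. Among 14 genes of glucose synthesis and fasting, g6pc1.2.L, the enzyme that releases glucose in liver, was the one called, with a rise of 1.49 ± 0.31 from 45.3, 26.7 and 49.7 to 269, 116, 75 and 156. The other copy, g6pc1.2.S, had a change of 0.19 ± 0.25 and was not called. In GFP explants the change of g6pc1.2.L was 0.06 and 3 other members of that list fell. The difference for g6pc1.2.L did not pass without the block (adjusted p = 0.25) and passed with it (adjusted p = 0.0378). On that list the difference passed for 1 gene without the block and for 9 with it, all in the positive direction.

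**Figure D3:**
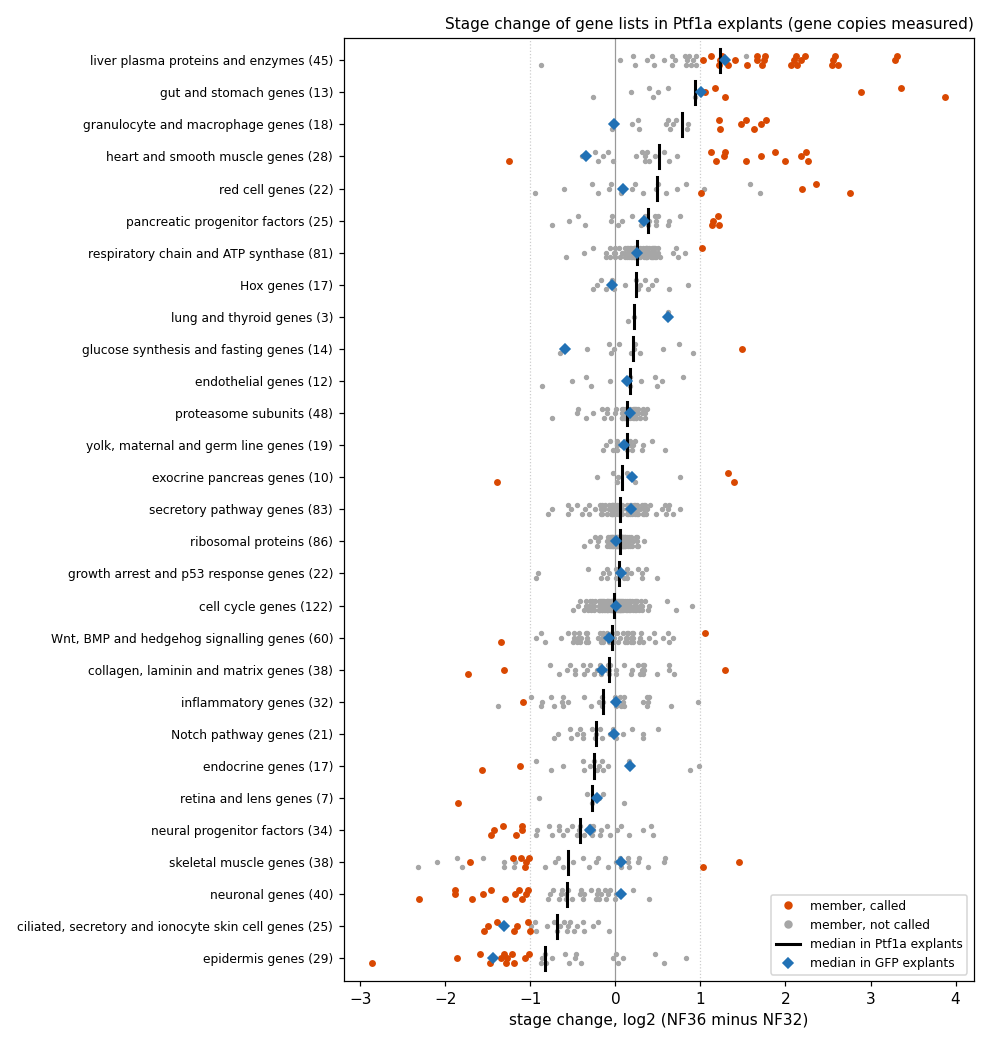
Stage change (log2, NF36 minus NF32) of every measured member of 29 gene lists in Ptf1a explants, orange where called and grey where not, with the Ptf1a median as a black bar and the GFP median as a blue diamond; dotted lines mark 2-fold changes. Liver and gut members lie to the right, neuronal, epidermis and ciliated members to the left.

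Most pancreatic genes were not called. Over all probe sets 1.85% were called higher and 1.62% lower. Of 25 pancreatic progenitor factors 4 rose and none fell, with a median of 0.385, and in GFP explants 1 rose, with a median of 0.33. gata4.S, a zinc finger factor of foregut endoderm, read 57, 80.7 and 82.1 and then 168, 185, 188 and 176, a rise of 1.14 ± 0.12 (adjusted p = 3.67e-05). The NF36 arrays lay close together and all were above NF32, but a second probe set of gata4.S had a change of 0.046. foxa1.L, a forkhead factor that opens endodermal chromatin, rose by 1.14 ± 0.20 from 136, 149.6 and 111 to 413, 347, 226 and 279. nr5a2.S, a nuclear receptor of pancreas and liver, rose by 1.21 ± 0.23 from 19.6, 25.5 and 15 to 96.6, 55.2, 78.6 and 45.3. The other copies gata4.L, foxa1.S and nr5a2.L had changes of 0.30, 0.34 and 0.62 and were not called.

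The homeobox gene nkx6-2.L, whose relatives mark pancreatic and neural progenitors, was the progenitor factor whose stage change differed between the injections without the block. With the block sox9.S passed as well, in the positive direction (0.62, adjusted p = 0.00538). nkx6-2.L read 30.9, 25.1 and 18.7 at NF32 and 81, 88.7, 82.9 and 62.9 at NF36 in Ptf1a explants, a rise of 1.22 ± 0.13 (adjusted p = 3.54e-05). GFP explants started lower, at 12, 10.2 and 6, and ended higher, at 128, 159, 152 and 150.4, a rise of 2.69 ± 0.13. Thus Ptf1a arrays were above GFP arrays at NF32 and below them at NF36, without overlap at either stage. The difference of -1.47 ± 0.18 passed (adjusted p = 0.00755) and held in each of 14 fits with a different array missing. rbpj.S, a partner of the Ptf1a complex, changed by 0.50 ± 0.07, passing in adjusted p but not in fold. hhex.L and prox1.L, factors of the liver and pancreas bud, changed by 0.34 and 0.76, and both copies of sox9 by 0.07 or less.

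Enzymes of the exocrine pancreas were dim. Of the 10 measured at both stages 3 read below 16 on average in both stages, 2 rose, 1 fell and the median was 0.08. cel.2.S, a bile salt lipase, read 2.2, 5.2 and 5 and then 43.7, 36.8, 44.5 and 25.3, a rise of 1.397 ± 0.13 (adjusted p = 1.68e-05). pdia2.L, a disulfide isomerase of acinar cells, rose by 1.32 ± 0.26 from 9.3, 6.4 and 8.9 to 51.9, 43.1, 84 and 17.4. In both genes the stages were apart, and the changes in GFP explants were 0.88 and 1.02. pnlip.L, named for pancreatic lipase, went the other way, from 33.6, 63 and 67.2 to 8.6, 9.7, 8.1 and 14.9, a fall of 1.39 on the log2 scale, and it also fell by 1.89 in GFP explants. The list's summed level was 192.6 to 200.6 at NF32 and 213 to 285 at NF36. Of 17 endocrine genes 2 fell and none rose, with a median of -0.25, whereas in GFP explants 2 rose and the median was 0.17. slc30a8.L, the zinc transporter of insulin granules, went from 89.8, 121 and 171 to 29.6, 45.5, 22.4 and 29.1, a change of -1.57 ± 0.24, and syt4.L, a vesicle protein that neurons share, from 54, 42.7 and 29.1 to 26, 9.2, 5.8 and 4.1, a change of -1.13 ± 0.21. slc30a8.L also changed by -0.88 in GFP explants. The difference did not pass for slc30a8.L or syt4.L without the block (adjusted p = 0.729 and 0.151) or with it (0.0735 and 0.0565). It passed in the negative direction for 2 other endocrine genes without the block. The list's count was 0 to 4 with 1 array left out, and 4 with the block.

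Neuronal transcripts were high in Ptf1a explants at NF32 and fell by NF36. Of 40 neuronal genes 12 fell and none rose, 3 had a change above 0 and the median was -0.57. In GFP explants 1 fell and the median was 0.06. The difference passed in the negative direction for 10 of the 40 (17 with the embryo batch block) and in the positive direction for none, a count that ranged from 1 to 19 when 1 array at a time was left out. tubb3.L, a neuronal tubulin, read 144, 173 and 176 at NF32 and 54.6, 57.3, 38.9 and 47.2 at NF36, a change of -1.47 ± 0.16 (adjusted p = 4.56e-05). GFP explants read 24.7, 11.2 and 19.3 and then 26.5, 41.1, 26.2 and 41.3. Every Ptf1a array of NF32 was above every other array, and the difference of -2.004 ± 0.22 passed with every array in turn left out, 14 fits in all (adjusted p = 0.00543 over all arrays).

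elavl4.L, an RNA-binding protein of differentiating neurons, read 187, 196 and 139 and then 63.8, 36.5, 28.6 and 19.6, a change of -1.89 ± 0.22, while GFP arrays stayed between 7.9 and 16.6. The difference was -1.92 ± 0.31 (adjusted p = 0.0204). The intermediate filament gene prph fell in both copies, prph.S by 2.31 from 388, 500.5 and 286 to 114, 75.4, 44.5 and 41.7, and prph.L by 1.88 from 579, 548 and 513 to 199, 139.8, 124 and 98.7. Replicate 1 was the highest NF36 array for both copies and for elavl4.L, and stayed below all NF32 arrays, as the choice of these genes required. In GFP explants prph.L changed by -0.61 (adjusted p = 0.0286). The difference of -1.28 ± 0.27 for prph.L did not pass without the block (adjusted p = 0.0646) and passed with it (0.00504). dpysl3, which guides growth cones, fell by 1.18 for dpysl3.L and by 1.56 for dpysl3.S, and gap43.S, a growth cone protein, fell by 1.103. The differences of dpysl3.L, dpysl3.S, gap43.S, sncg.S and amph.L were -1.60, -1.70, -1.19, -1.16 and -1.14, and all passed. The calls of prph.S, dpysl3.S and amph.L in the difference held in only 3, 2 and 1 of the 14 fits that left 1 array out. Those fits did not use the block. With the block and all arrays the 3 genes passed (adjusted p = 0.00742, 0.00742 and 0.0104). The summed level of the 40 genes was 2943 to 3203 at NF32 and 1084 to 1841 at NF36 in Ptf1a explants, and 810.2 to 930.4 and 820.2 to 916.4 in GFP explants, so Ptf1a arrays stayed above GFP arrays at NF36. Of the 40 members 12 averaged below 16 in Ptf1a explants at both stages, and gad1.1.L, which makes the inhibitory transmitter GABA, was listed at 0 on at least 1 Ptf1a array.

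thbs4.S, a thrombospondin of the extracellular matrix, fell too. It read 85.5, 134 and 130.2 and then 28.5, 26, 26.8 and 14.1 in Ptf1a explants, a change of -1.73 ± 0.22, while GFP arrays read between 4.6 and 22.4 at both stages. The difference was -1.94 ± 0.31 (adjusted p = 0.0196). The other copy, thbs4.L, had a change of -0.30 ± 0.17 in Ptf1a explants and was not called. Of 34 neural progenitor factors 6 fell and none rose, with a median of -0.42, and in GFP explants 2 rose and 7 fell. The difference passed for 1 of them in the positive direction, and with the block for 4 in the positive and 5 in the negative. sox3.S, which keeps neural cells undifferentiated, read 55.2, 34.1 and 62.4 and then between 5.6 and 13.4 on the 4 NF36 arrays, a change of -1.32 ± 0.17. dlx3.L, tfap2a.L and dlx2.S, which fell by 1.46, 1.43 and 1.17, are factors of epidermis and neural crest as well. In GFP explants these 3 genes changed by -1.95, -2.04 and -1.745, and sox3.S by -0.73. Of the 34 members 9 averaged below 16 in Ptf1a explants at NF32 and 16 at NF36. No Notch pathway gene of 21 was called, against 3.47% over all probe sets. Without the fold requirement 7 of the 21 were lower and 2 higher, against 15.8% and 15.9% over all probe sets. The Notch target hes5.1.S changed by -0.53 ± 0.08. The difference passed for 3 of the 21, all negative, only with the block. Of 7 retina and lens genes rpe65.S, the visual cycle isomerase, was the one called, falling from 146, 107 and 113 to 27.8, 18.5, 21.9 and 19.9, and it fell by 1.54 in GFP explants. otx2.L and otx2.S, which define anterior neural tissue and eye, were listed at 0 on at least 1 Ptf1a array.

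**Figure D4:**
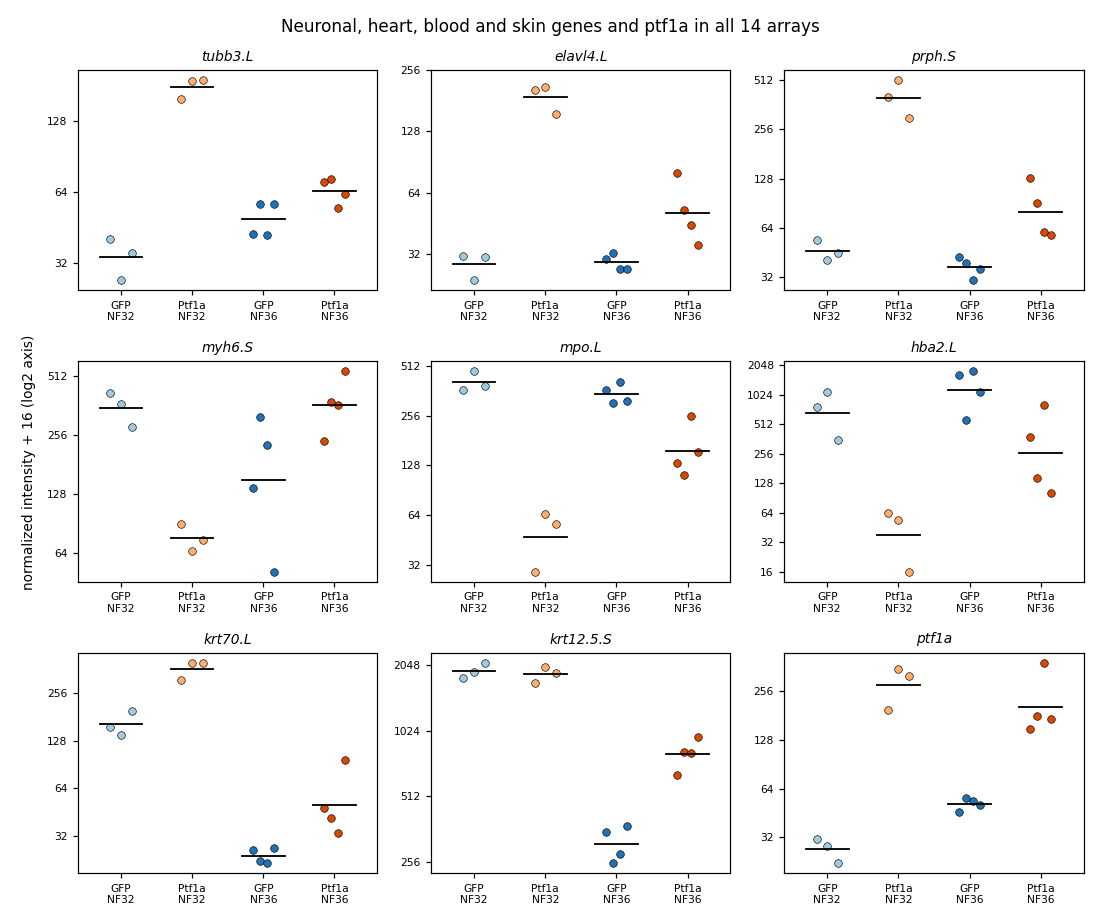
Normalized intensity of tubb3.L, elavl4.L, prph.S, myh6.S, mpo.L, hba2.L, krt70.L, krt12.5.S and ptf1a on all 14 arrays, by injection and stage. Neuronal genes are high on the 3 Ptf1a arrays of NF32, myh6.S is low there, and the keratins are lower at NF36 in both injections.

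Heart muscle genes rose in Ptf1a explants. Of 28 heart and smooth muscle genes 11 rose and 1, casq2.S, fell, with a median of 0.51, and in GFP explants none rose, 1 fell and the median was -0.35. myh6.S, the heavy chain of atrial myosin, read 74.6, 49.6 and 59.1 at NF32 and 221, 361, 347 and 523 at NF36, a rise of 2.25 ± 0.47 (adjusted p = 0.0034). GFP explants read 399, 349 and 265 and then 121, 301, 211 and 35.8. Ptf1a arrays were thus below GFP arrays at NF32 and overlapped with them at NF36, where GFP replicate 4 was lowest. The difference of 3.47 ± 0.67 passed (adjusted p = 0.0413), but in only 3 of the 14 fits that left out 1 array. Those fits did not use the block, with which it passed over all arrays (adjusted p = 0.0255). tnnc1.L, a troponin of heart and slow muscle, rose by 2.26 ± 0.42 from 34, 31.8 and 29.1 to 125, 261, 219 and 277, and tnni3.S, the cardiac troponin inhibitor, by 2.24 ± 0.45 from 39.9, 23.2 and 24.9 to 116, 242, 179 and 286. Their differences of 2.93 and 3.03 did not pass without the block (adjusted p = 0.0514 and 0.0599) and passed with it (0.0214 and 0.0276). nppb.L, a natriuretic peptide of heart muscle, rose by 1.53 ± 0.26 and the small heat shock gene hspb7.L by 1.42 ± 0.27. The difference of hspb7.L was 2.04 ± 0.38 (adjusted p = 0.0358, or 0.0255 with the block). Without the block it also held in only 3 of those 14 fits. Across the list the difference passed for 1 gene, or 0 to 7 with 1 array left out, and, with the block, for 10, all positive. In Ptf1a explants the summed level was 3620 to 4438 at NF32 and 4409 to 7140 at NF36, which overlap. In GFP explants it was 4599 to 4776 and 2102 to 5049, which overlap too. Of the 28 members 7 averaged below 16 at NF32 in Ptf1a explants and none at NF36.

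Most skeletal muscle genes were not called, and most of the calls were lower. Over all probe sets 1.85% were called higher and 1.62% lower. Of 38 measured 6 fell, 2 rose and the median was -0.56, against 1 fall and a median of 0.06 in GFP explants. The 6 falls rested on Ptf1a NF32 replicate 2, since without it none were called. pgam2.S, the muscle phosphoglycerate mutase, read 23.8, 83.6 and 30.6 and then 16.4, 23.8, 5.2 and 7.2, and actn3.L, a fast fibre actinin, read 71.3, 147 and 63.9 and then 51.4, 49.2, 21.8 and 20.8. Replicate 2 was the highest NF32 array for both. The 2 rises, actn2.S by 1.45 ± 0.29 and smyd1.L by 1.03 ± 0.25, were in genes that heart muscle uses too. The difference passed for no skeletal muscle gene without the block, and with it for 3 in the positive and 2 in the negative direction. The summed level spanned 5998 to 13140 at NF32 and 2167 to 6801 at NF36 in Ptf1a explants, which overlap, and 1205 to 5280 and 1848 to 2482 in GFP explants.

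Blood cell genes were lower in Ptf1a than in GFP explants at NF32, by their summed levels. Of 18 granulocyte and macrophage genes 7 rose and none fell, with a median of 0.78, and in GFP explants 1 fell, with a median of -0.02. mpo.L, the myeloperoxidase of granules, read 13.2, 48.6 and 40.7 and then 115, 96.5, 239 and 139, a rise of 1.71 ± 0.28 (adjusted p = 0.000806). GFP arrays read 349, 458 and 369.6 and then 351, 287, 394 and 298, so that Ptf1a arrays were below GFP arrays at both stages. The difference of 1.94 ± 0.40 did not pass without the block (adjusted p = 0.0579) and passed with it (0.00691). The other copy, mpo.S, had a change of 0.59 ± 0.31 in Ptf1a explants and was not called. mmp9.1.S, a gelatinase, rose by 1.77 ± 0.26 from 2.5, 4.9 and 15.8 to 63, 59.7, 104 and 37.1. prss57.L, a granule protease, and epx.L, the eosinophil peroxidase, rose by 1.63 ± 0.25 and 1.48 ± 0.26, each with replicate 3 highest at NF36. On this list the difference passed for no gene without the block and for 12 with it. The summed level of the 18 genes was 238.1 to 457.3 and then 794 to 1447 in Ptf1a explants, against 1732 to 2250 and 1650 to 2160 in GFP explants. Of the 18 members 9 averaged below 16 at NF32 in Ptf1a explants and 2 at NF36.

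Of 22 red cell genes 4 rose and none fell, with a median of 0.49 and a GFP median of 0.09. hba2.L, an alpha globin, read 47.6, 38 and 0 at NF32 and 361, 127, 788 and 84.7 at NF36, a rise of 2.76 ± 0.71 (adjusted p = 0.0104). The stages did not overlap, as its choice among the steepest rises required, although NF36 arrays differed widely, with replicates 3 and 1 high. hbe1.L and hba-l5.L, other globins, rose by 2.36 ± 0.68 and 2.19 ± 0.64, and urod.L, a haem synthesis enzyme, by 1.00 ± 0.26. These calls rested on Ptf1a NF32 replicate 3, the lowest array, without which none of the 22 was called. The difference passed for no red cell gene without the block and for 3 with it, all positive. The summed level was 1618 to 2999 at NF32 and 2149 to 7287 at NF36 in Ptf1a explants, which overlap, and 6506 to 10830 and 5726 to 12530 in GFP explants. No endothelial gene of 12 was called, against 3.47% over all probe sets. Without the fold requirement 5 of the 12 were higher and 2 lower, against 15.9% and 15.8% over all probe sets. The part of the blood, muscle, neuronal and skin cells in the changes of the endoderm genes was not tested.

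**Figure D5:**
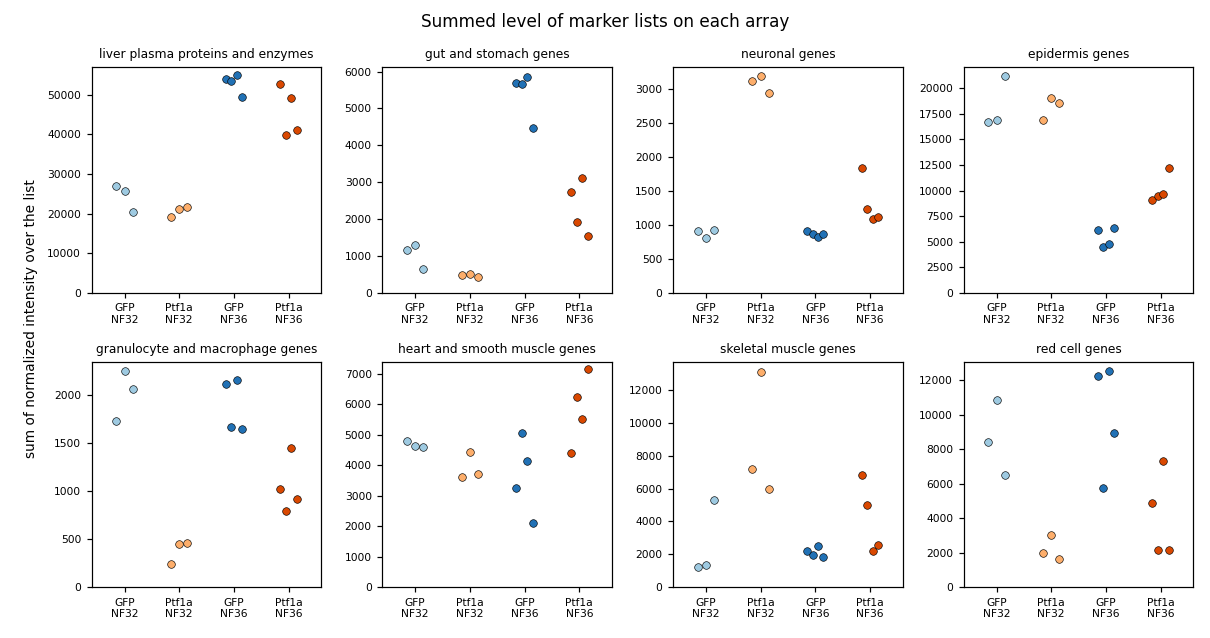
Summed normalized intensity of 8 marker lists on each array, in GFP and Ptf1a explants of both stages, with the axis starting at 0. Neuronal sums of Ptf1a explants lie between 2943 and 3203 at NF32 and between 1084 and 1841 at NF36, while those of GFP explants lie between 810.2 and 930.4 on all arrays.

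Many skin transcripts fell in both injections. Of 29 epidermis genes 12 fell and none rose in Ptf1a explants, with a median of -0.83, and 19 fell in GFP explants, with a median of -1.44. krt70.L, a keratin, read 292, 382 and 378 at NF32 and 32.1, 25.7, 17.1 and 79.9 at NF36, a change of -2.86 ± 0.27 (adjusted p = 2.24e-05), and fell by 2.76 in GFP explants. Its NF36 replicate 4 was the highest of that stage and still far below NF32. krt12.5.S, another keratin, started at overlapping levels in both injections, at 1680.1, 1981 and 1852 in Ptf1a and 1758, 1890.4 and 2077 in GFP explants. It ended at 628, 798, 792 and 938 in Ptf1a and at 338, 238, 262 and 361 in GFP explants, changes of -1.21 ± 0.15 and -2.62 ± 0.15. The difference of 1.41 ± 0.21 passed (adjusted p = 0.0168), and Ptf1a arrays of NF36 were all above the GFP arrays of that stage. upk1a.S, a uroplakin of outer epithelia, was not called in Ptf1a explants (-0.46 ± 0.17, adjusted p = 0.0531). It read 1739, 1978 and 1857 there and then 1284, 1335, 1393 and 1369. In GFP explants it fell by 1.93, a difference of 1.47 ± 0.24 (adjusted p = 0.0204). The other copy, upk1a.L, was called lower in Ptf1a explants, at -1.225, and changed by -1.881 in GFP explants. The transcription factors of surface epithelium grhl3.S and dlx3.S had differences of 1.05 ± 0.17 and 1.00 ± 0.20, with falls in both injections, and held in 10 and 3 of the 14 fits with an array left out. On the epidermis list the difference passed in the positive direction for 4 genes, a count that ranged from 0 to 6 when 1 array at a time was left out, and for 13 with the block. The summed level was 16930 to 19060 and then 9122 to 12170 in Ptf1a explants, against 16710 to 21210 and then 4529 to 6293 in GFP explants, so that the groups overlapped at NF32 and were apart at NF36.

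Of 25 genes of ciliated, secretory and ionocyte skin cells 7 fell, none had a change above 0 and the median was -0.69, against 16 falls and a median of -1.31 in GFP explants. tekt2.S, a filament protein of cilia, read 117, 172 and 212 and then 57.7, 44.8, 33.7 and 55.3, a change of -1.50 ± 0.23. atp6v1b1.L, a proton pump subunit of ionocytes, read 177, 426 and 338 and then 78.8, 55.6, 115 and 128, a change of -1.55 ± 0.34. foxi1.L, the forkhead factor that specifies ionocytes, fell by 1.398 from 63.8, 139 and 112 to 22.6, 17.7, 35.4 and 41.2. In each of these genes NF32 replicate 1 was the lowest of its stage and above all NF36 arrays. The difference passed for no gene of the list without the block and for 13 with it, all positive. The summed level was 7897 to 8301 and then 5209 to 5934 in Ptf1a explants, and 7252 to 9159 and then 3278 to 4712 in GFP explants.

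The steepest falls outside the keratins included transporters and proteases. slc26a4l.L and slc26a4.3.L, named for anion exchangers of the pendrin family, fell by 2.30 and 2.26, the first from 228, 718 and 679 to 63.1, 52.3, 115 and 134. atp6v1al.L, a proton pump subunit, fell by 2.07, and atp2a3.L, a calcium pump, fell by 1.95. capn2.L and capn9.L, calcium-dependent proteases, fell by 2.41 and 1.91. capn9.L read 337, 471 and 469 and then 90.6, 94.4, 106 and 111, and its difference of 1.27 ± 0.24 passed (adjusted p = 0.0402), with a fall of 3.18 in GFP explants. trim29.L, a ring finger protein of stratified epithelia, fell by 2.09, and its second probe set had a change of -0.95. Further positive differences were those of mmp3.L (1.77 ± 0.35), atp12a.L (1.63 ± 0.32), ldhb.S (1.61 ± 0.25) and anxa9.L (1.35 ± 0.24), all with more negative changes in GFP than in Ptf1a explants. Of the 14 fits with an array left out, without the block, the difference held in 4 for capn9.L and 2 for mmp3.L. It held in 5 for atp12a.L, 12 for ldhb.S and 6 for anxa9.L. With the block and all arrays it passed for each of these genes (adjusted p = 0.00742, 0.0089, 0.00386, 0.00131 and 0.00342 in this order). ldhb.S, a lactate dehydrogenase chain, read 1019.7, 1232 and 1470.1 and then 830.0, 821, 709.9 and 812 in Ptf1a explants, and ended at 367, 265, 251 and 301 in GFP explants. Of 60 Wnt, BMP and hedgehog signalling genes 1 rose, sfrp5.S, and 1 fell. The latter, sfrp2.S, a Wnt inhibitor, fell by 1.35 from 509.8, 634 and 718 to 203, 274, 168 and 306. The counts of this list lay near the shares over all probe sets, of which 1.85% were called higher and 1.62% lower.

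Several further lists held few or no calls, against 3.47% called over all probe sets. At that share a short list holds hardly any call, so a count of 0 says little about it. None of 122 cell cycle genes, 86 ribosomal proteins, 83 secretory pathway genes or 48 proteasome subunits was called. The same held for 22 growth arrest and p53 response genes, 19 yolk, maternal and germ line genes, 17 Hox genes and 3 lung and thyroid genes. Without the fold requirement 11 cell cycle genes were higher and 7 lower. For proteasome subunits these counts were 12 and 3, and for Hox genes 6 and 1, against 15.9% and 15.8% over all probe sets. Of 81 respiratory chain and ATP synthase genes 71 had a change above 0, with a median of 0.25 in both injections. Of these 1 was called, uqcrc2.S at 1.02. Without the fold requirement 43 of the 81 were higher and 1 lower. sdha.S, a subunit of succinate dehydrogenase, read 201, 205 and 184 and then 331, 336, 338 and 324, a change of 0.71 ± 0.06 that passed in adjusted p (1.18e-05) and not in fold. Of 38 collagen, laminin and matrix genes 1 rose, col3a1.S by 1.29 ± 0.25, and 2 fell, thbs4.S and col2a1.L. The difference passed for 1 of the 38, thbs4.S, and with the block for 6 in the positive and 2 in the negative direction. Of 32 inflammatory genes nfkbia.S was the one called, with a change of -1.09, although its stages overlapped. Such a count is near the 3.47% called over all probe sets.

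Of 1570 pairs in which both copies of a gene were measured, both copies rose in 13, both fell in 14 and none had copies called in opposite directions. Signs were not counted in the 1461 pairs with no called copy. In 82 pairs 1 copy was called, and in 68 of these the other copy's change had the same sign. Changes of the copies correlated at 0.583 across pairs, a description only, since their probe sets may share sequence. crip1 rose in both copies but by different amounts, 1.099 for crip1.L and 3.07 for crip1.S. tnnc1.L rose by 2.26 while tnnc1.S had a change of 0.46.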

How the data were processed

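Total RNA of pooled explants was measured on Affymetrix 3' expression arrays. The deposited table holds linear intensity values, 1 column per array. PLIER, which condenses probes into 1 intensity per probe set, is listed in the submitters' processing notes; the sources used here give neither its role and version nor the filter on probe sets. Of 24218 probe sets, 604 had values at NF32 alone and 1363 at NF36 alone and were not tested. Values were quantile normalized and taken as log2(intensity + 16). The 4 groups shared 1 linear model, fitted by lmFit and eBayes of limma 3.58.1 (R 4.3.3, 2-sided), adjusting over all probe sets. The fit was tested on simulated data. Embryo batches were taken from the series text and from shared replicate numbers within a stage, since the sample labels name no batch. Same-numbered GFP and Ptf1a arrays deviated together (r of 0.71, 0.296 and 0.416 at NF32 and 0.765, 0.669, 0.717 and 0.633 at NF36). At NF32 GFP replicate 3 and Ptf1a replicate 2, of unlike number, had an r of 0.25. Results with the block rest on this match of numbers to batches. Separate pools were treated as replicates, and p-values weigh a change against the spread between pools of a group. That spread does not cover differences of chip or hybridisation between the stages. The main fit and the fits with 1 array left out did not use the shared embryo batches. The number of arrays limits precision.

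The gene lists and the comparison itself were chosen with earlier results of these data known. Named genes were ptf1a and the 20 steepest rises and falls among non-overlapping genes brighter than the median probe set. Added were the 12 largest differences in each direction among genes brighter than that median whose difference had passed adjusted p under 0.05. Up to 5 called members of each list were named by p (2 where fewer were called). Other called list members are named after their values were seen. Alternatives were percentile ranks, other offsets, median centring, deposited values, fold minimums, dim probe sets left out, array weights, blocks and each array left out.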

Additional observations from a re-analysis of the deposited data

Results flagged for a closer look

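Dixon's test, which marks too large a gap in a group of 4, by chance marks about 1 in 20 groups. Among the Ptf1a NF36 arrays it marked 5 of the 139 named probe sets, no more than that share. In all 5 the array far from the other 3 was replicate 3. ptf1a read 367.6 there against 133.7 to 163.1, fabp2.S 329 against 63.95 to 88.25, prss57.L 123.7 against 48.49 to 52.3, epx.L 106.4 against 38.7 to 49.83, and ldhb.S, which was lower, 709.9 against 811.5 to 830.

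The stage changes of Ptf1a and GFP explants differed by limma's test for the following named genes. Differences are given as Ptf1a minus GFP on the log2 scale. Most of these genes were named because they had passed this test, so their passing adds no support. Neuronal genes were negative, with tubb3.L at -2.004, prph.S at -1.983, elavl4.L at -1.916, dpysl3.S at -1.699, dpysl3.L at -1.599, gap43.L at -1.321, gap43.S at -1.193, sncg.S at -1.157 and amph.L at -1.137. Also negative were thbs4.S at -1.938, ctse.L at -1.757 and nkx6-2.L at -1.471. Muscle genes were positive, with the probe sets of myh6.S at 3.466 and 3.313 and hspb7.L at 2.042. Genes of surface epithelium were positive, with 1 of the probe sets of trim29.L at 1.583, upk1a.S at 1.47, krt12.5.S at 1.41, grhl3.S at 1.055 and dlx3.S at 1.003. The other trim29.L probe set, the one with the steeper fall, had a difference of 0.72 that did not pass (adjusted p = 0.288). The remaining positive genes were mmp3.L at 1.771, atp12a.L at 1.634, ldhb.S at 1.615, anxa9.L at 1.354 and capn9.L at 1.273, and LOC398451, MGC84752 and XB5953580.L, whose functions are not described here, at 1.572, 1.538 and 1.367.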

How the results depend on the processing

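The counts of called probe sets moved with the threshold and the offset. For the stage change, 411 probe sets were higher and 361 lower. With percentile ranks 3352 and 3110 passed on adjusted p alone and 2014 and 2019 with at least 10 points. An offset of 1 gave 899 and 952, an offset of 64 gave 153 and 110, no minimum fold 3539 and 3524, a 4-fold minimum 77 and 19, and probe sets with 1 symbol, by their smaller number, 258 and 219. Leaving out 1 array gave 391 to 433 and 319 to 420. Across stages the replicate numbers did not pair the arrays (r of -0.0155, -0.109 and 0.0296), and the replicate block there gave 405 higher and 371 lower.

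For the difference, 64 were positive and 53 negative. Deposited values gave 97 positive, an offset of 64 gave 24 positive, leaving out dim probe sets 30 and 13, a 2-fold minimum 22 negative, array weights 175 and 140, and the embryo batch block 671 and 341. Leaving out 1 array gave 5 to 141 positive and 11 to 143 negative, lowest without GFP NF32 replicate 2 and highest without Ptf1a NF36 replicate 1, so this count depends on single arrays. The cause of these moves was not tested.

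Each named stage change was counted once under each alternative, so a gene enters many times. Of these cases 2415 kept direction and side of the threshold, 172 fell short of it, 73 newly passed and 1 reversed. The reversed case was slc5a5.L with array weights (-0.01543 against 0.2149, never called). Of the named differences, counted in the same way, 426 cases kept their side and 215 fell short. List medians, each counted once under each alternative tried, kept their value in 121 cases and moved in 22. Under median centring those of the cell cycle genes (0.003022 against -0.01519) and the ribosomal proteins (-0.02295 against 0.04806) changed sign, both close to 0. Dim probe sets, such as most exocrine enzymes, are limited by signal over background.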

Other observations

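Some genes of the exocrine pancreas had values on the NF36 arrays alone, and their deposited intensities, not normalized, were low. These were 13 genes. The carboxypeptidase cpb1.S read from 2.5 to 71.3 on the Ptf1a arrays of its brightest probe set and from 0 to 3.4 on the GFP arrays. The chymotrypsin genes ctrc.L and ctrb1.L overlapped between the injections, ctrc.L with 4.8 to 36.6 in Ptf1a and 3.4 to 33.1 in GFP explants, and ctrb1.L with 5.3 to 35.5 and 10.9 to 31.4. The amylase amy2b.S read at most 0.2 in Ptf1a and 0.4 in GFP explants. The median deposited intensity of all 1363 probe sets with NF36 values alone was 7.3.

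The NF36 arrays of Ptf1a explants correlated with the mean of the NF32 Ptf1a arrays at 0.924, 0.942, 0.93 and 0.947 for replicates 1 to 4. Among copies, phf13 changed by 1.31 for the .L copy and -0.48 for the .S copy, and wdr43 by -1.35 and 0.27. The 14 mitochondrial control probe sets changed by -0.30 to 0.14 in Ptf1a explants.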
